A study of Homo sapiens with 6 samples.

Results

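The 10 genes described here take glucose from the medium to lactate: the transporter SLC2A1 and the enzymes HK2, PFKP, ALDOA, TPI1, GAPDH, PGK1, ENO1, PKM and LDHA. They were named by their role in the pathway, and make up 10 of the 58336 genes in the count tables. Their RNA was measured in 12Z cells, an established line of human endometriotic epithelial cells, in 3 libraries from cells given siRNA to SMARCA4 (siBRG1) and 3 libraries from cells given non-targeting siRNA (control). Both groups received 50 nM siRNA in cells grown in 10% serum, a medium change at 24 h, a change to 0.5% serum at 48 h and lysis at 72 h. SMARCA4 encodes BRG1, an ATPase that drives the SWI/SNF chromatin remodelling complexes. All libraries come from the same cell line, and the control labels describe those 3 libraries as reanalysed from an earlier deposit, so for every value below the deposit and the knockdown cannot be told apart. The extraction text of all samples also mentions a drug or vehicle step, which no sample's own label assigns.

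Glycolysis splits glucose into pyruvate in the cytosol and yields ATP and NADH. Uptake through facilitative transporters and the kinase steps at hexokinase, phosphofructokinase and pyruvate kinase are its classic control points, while the enzymes between them run near equilibrium and are among the most abundant proteins of the cell. Lactate dehydrogenase returns NADH to NAD+ by turning pyruvate into lactate. Many of these genes are known targets of the hypoxia factor HIF-1 and of MYC, and several have processed pseudogenes, intronless copies scattered through the genome, with which short reads can be confused.

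SMARCA4 stood at 60.5, 78.9 and 50.6 CPM in the siBRG1 libraries, against 244, 266 and 262 CPM in control, where CPM is the count scaled to the TMM-normalised library total. Reads assigned to genes came to 12391161 to 13369692 per siBRG1 library and 40228678 to 49720320 per control library, so the control values carry less counting error. Summed epithelial markers (KRT7, KRT8, KRT18, KRT19, EPCAM, CDH1 and MUC1) ranged from 3482 to 3737 CPM in siBRG1 and from 3940 to 4025 CPM in control, mostly from KRT8 and KRT18. KRT7 and KRT19 fell, at averages of 36.9 and 609 CPM in siBRG1 against 196 and 883 CPM in control. EPCAM and CDH1 rose but were low in both groups, at averages of 1.61 and 5.87 CPM in siBRG1 against 0.251 and 3.05 CPM in control. KRT8 also rose, and KRT18 and MUC1 did not pass. Markers of stromal fibroblasts, 7 of 7 expressed, summed to 4747 to 5070 CPM in siBRG1 and 2625 to 2811 CPM in control. The sums came mostly from COL1A1 and COL3A1, at averages of 2536 and 1616 CPM in siBRG1 against 1955 and 294 CPM in control. PDGFRA, PDGFRB, COL1A1, COL3A1, DCN and LUM rose. THY1 fell, averaging 287 CPM in siBRG1 and 323 CPM in control. The part of these markers in the results below was not tested. Of 5 endothelial markers 3 were tested, with sums of 15.1 to 21.3 CPM in siBRG1 and 17.4 to 20.1 CPM in control. Of 5 leukocyte markers 2 were tested, with sums of 9.76 to 10.5 CPM in siBRG1 and 4.10 to 5.50 CPM in control, and CD3E was at 0 counts in all 6 libraries. Nothing in the labels says that replicates were separate cultures, so the spread that p-values rest on may be technical. In bulk RNA, fewer cells that express a gene and less RNA per cell cannot be told apart.

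GAPDH, ENO1, TPI1, PKM, LDHA and PGK1 stood at high level in both groups and PFKP, SLC2A1 and HK2 lower, and HK2 moved most. ALDOA was counted only in part, so its level is not ranked. Changes are given as log2 ratios (log2 fold changes), siBRG1 over control, each with a standard error (SE), and adjusted p-values come from edgeR's quasi-likelihood test with Benjamini-Hochberg adjustment over all 15830 genes tested. All 10 genes were tested. At an adjusted p under 0.05, 4 of them rose (ALDOA, TPI1, PGK1 and PKM), 2 fell (HK2 and LDHA) and 4 did not pass (SLC2A1, PFKP, GAPDH and ENO1). Over all genes tested, 72.6% passed in either direction, 36.1% as higher and 36.5% as lower, so 6 of 10 is near the background. At least 2-fold, 1 of the 10 changed, against 21.6% of all genes. The median absolute log2 ratio was 0.26 for the 10 genes and 0.48 for all genes tested, and the signed medians were 0.062 and −0.0050. The libraries of the groups did not overlap for 8 of the 10 genes, where 74.3% of all genes tested did not overlap. Summed, these 10 genes held 1.38 ± 0.0115% of all gene counts in siBRG1 libraries and 1.24 ± 0.0107% in control libraries (SD, n = 3 each). These shares are of raw counts, without TMM, and are not on the scale of the log2 ratios.

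Between genes, levels were compared per exonic length, as TPM (counts per exonic length, scaled to 1 fixed total per library). TPM was not TMM-normalised, so it serves to compare genes within a group and not the groups. SLC2A1 averaged 57.6 TPM in siBRG1 and 56.5 TPM in control, but 66.2 and 72.3 CPM. PFKP averaged 182 TPM in siBRG1 and 169 TPM in control, but 213 and 221 CPM. GAPDH stood highest, at 5837 ± 67.2 TPM in siBRG1 and 5020 ± 166 TPM in control (SD, n = 3 each). ENO1, TPI1, PKM, LDHA and PGK1 lay between 1935 and 615 TPM in siBRG1 and between 1664 and 453 TPM in control. The order was the same in both groups except that LDHA lay below PKM in siBRG1 and above it in control, and HK2 below SLC2A1 in siBRG1 and above it in control. This order depends on the length used, the union of all annotated exons (8571 bases for PKM, 6210 for LDHA, 2700 for TPI1), and not on the transcripts expressed. In CPM, PKM lay above LDHA in both groups, at averages of 2680 against 1660 in siBRG1 and 2195 against 1980 in control. The isozyme shares below use the same lengths. Libraries of neighbours in this order did not overlap in either group. HK2 stood lowest of the genes that could be measured in full in siBRG1, at 31.3 ± 0.812 TPM, against 77.0 ± 1.92 TPM in control. ALDOA is left out of this order, since much of its sequence is shared with another annotated gene.

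**Figure D1:**
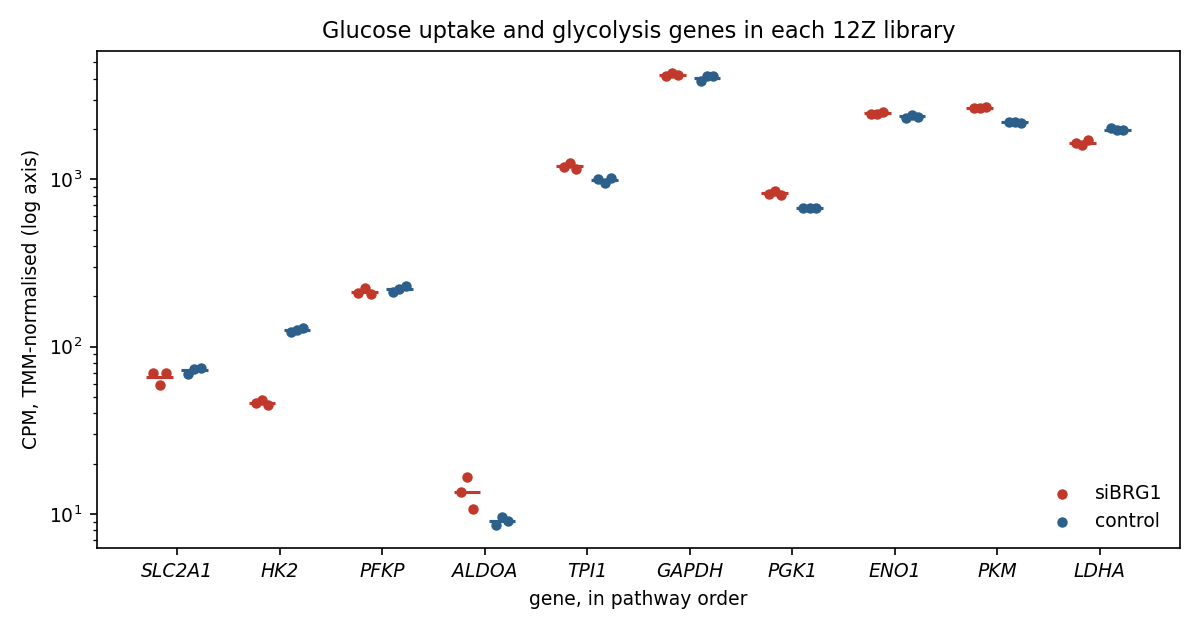
Level of each gene in CPM (log axis) in the 3 siBRG1 libraries (red, left) and the 3 control libraries (blue, right), with the group mean as a line; genes run from uptake to lactate. HK2 shows the widest gap, with means of 46.1 CPM (siBRG1) and 126 CPM (control), while SLC2A1 and PFKP overlap between the groups.

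Glucose enters through SLC2A1, which encodes GLUT1, the widely expressed basal glucose transporter (ENSG00000117394.21, chromosome 1, 42925375 to 42959176 on GRCh38). Its level was 69.8, 59.3 and 69.3 CPM in siBRG1 libraries, against 68.3, 73.8 and 74.7 CPM in control libraries. The groups overlapped, since replicates 1 and 3 of siBRG1 lay above replicate 1 of control. The log2 ratio was −0.13 (SE 0.0579, 95% interval −0.24 to −0.0067, adjusted p = 0.0536), just outside the threshold. The gene passed as lower in 8 of 18 alternative analyses, with log2 ratios of −0.40 to −0.049 over the 18, the largest after removal of GC and length trends (smooth trends of counts with transcript GC content and length, estimated in each library). Among the 8 were the analyses without siBRG1 replicate 1 (−0.16, adjusted p = 0.0297), siBRG1 replicate 3 (−0.16, adjusted p = 0.0278) or control replicate 1 (−0.18, adjusted p = 0.0155). In the authors' deposited table its log2 ratio was −0.15 with an adjusted p of 0.0216.

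SLC2A3, which encodes the high-affinity transporter GLUT3, moved the other way. It averaged 347 ± 31.6 CPM in siBRG1 and 123 ± 2.02 CPM in control (SD, n = 3 each), a 2.83-fold higher level (SE of the log2 ratio 0.0476, adjusted p = 3.19e-21). Per exonic length SLC2A1 stood at 57.6 ± 5.59 TPM in siBRG1 and 56.5 ± 2.48 TPM in control, and SLC2A3 at 232 ± 23.1 TPM and 73.6 ± 1.16 TPM in the same groups (SD, n = 3). SLC2A1 held 20.2, 19.8 and 19.5% of the class I transporter RNA (SLC2A1 to SLC2A4 and SLC2A14) in siBRG1 libraries, against 42.1, 43.2 and 44.3% in control libraries. All 3 siBRG1 shares lay below all 3 control shares. A two-sided exact permutation test gave p = 0.1, the smallest that 3 libraries against 3 allow (0.175 adjusted over 7 isozyme families). No family could therefore pass 0.05. For phosphoglycerate kinase and pyruvate kinase the outcome was fixed, since PGK1 and PKM held 100% in every library. SLC2A14 is a near-identical neighbour of SLC2A3, so reads that fit both may be missing from SLC2A3.

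Hexokinase traps glucose in the cell as glucose 6-phosphate, and HK2 is its inducible, mitochondria-binding isozyme (ENSG00000159399.9, chromosome 2, 74833981 to 74893359). HK2 stood at 46.0, 47.7 and 44.5 CPM in siBRG1 libraries, against 123, 126 and 130 CPM in control libraries. Every siBRG1 library was far below every control library, and the spread within each group was small. The log2 ratio was −1.45 (SE 0.0505, adjusted p = 2.72e-20), a 2.74-fold lower level. It kept its direction and call in all 18 alternatives, with log2 ratios from −1.63 to −1.36. HK1, the housekeeping isozyme, also fell, to 115 ± 9.76 CPM in the siBRG1 libraries against 225 ± 4.59 CPM in the control libraries (log2 ratio −0.96, SE 0.0473, adjusted p = 9.33e-17). HK2 held 29.3 ± 1.20% of hexokinase RNA per length in siBRG1 and 36.6 ± 0.391% in control (SD, n = 3 each; exact two-sided permutation p = 0.1, 0.175 adjusted over 7 families). That share was taken over HK1, HK2, HK3 and HKDC1.

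The promoters of HK2, LDHA and PGK1 are printed because these genes fell, fell and rose while all 3 carry the core letters of a hypoxia response element, ACGTG or GCGTG on either strand, shown in capitals. Each run is the 250 bases before the RefSeq transcript start, 5′ to 3′ on the gene's strand (RefSeq, GRCh38.p14). The GENCODE 29 spans of these genes begin upstream of the RefSeq start, so the windows reach into them.
HK2, chr2:74833877-74834126, plus strand: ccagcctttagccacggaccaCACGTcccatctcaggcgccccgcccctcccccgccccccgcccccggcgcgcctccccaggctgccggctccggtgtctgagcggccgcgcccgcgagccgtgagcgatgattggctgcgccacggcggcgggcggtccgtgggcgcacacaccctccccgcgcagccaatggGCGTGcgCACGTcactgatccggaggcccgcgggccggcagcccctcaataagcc
LDHA, chr11:18394313-18394562, plus strand: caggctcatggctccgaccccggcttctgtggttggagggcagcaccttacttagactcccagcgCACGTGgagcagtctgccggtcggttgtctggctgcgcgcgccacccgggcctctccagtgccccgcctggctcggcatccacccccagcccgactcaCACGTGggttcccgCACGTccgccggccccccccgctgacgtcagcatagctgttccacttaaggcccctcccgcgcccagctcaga
PGK1, chrX:78103998-78104247, plus strand: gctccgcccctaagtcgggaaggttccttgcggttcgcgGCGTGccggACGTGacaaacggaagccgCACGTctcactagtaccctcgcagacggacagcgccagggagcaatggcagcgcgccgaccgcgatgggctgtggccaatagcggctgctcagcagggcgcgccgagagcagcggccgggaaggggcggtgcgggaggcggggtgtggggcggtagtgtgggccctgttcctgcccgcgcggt
All 10 genes had an entry in the RefSeq promoter table. The core letters occurred in the windows of 6 of the 10 (HK2, ALDOA, GAPDH, PGK1, ENO1 and LDHA) and in 43.1% of 27305 promoters of the same length. Of these 6 genes 2 rose, 2 fell and 2 did not pass. The E-box CACGTG, whose letters contain the core, occurred in GAPDH and LDHA and in 6.49% of all promoters, and the AP-1 letters TGANTCA in none of the 10 and in 6.60% of all promoters. A match of letters is a description of the window and not a bound site.

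Phosphofructokinase commits the sugar to glycolysis, and PFKP encodes its platelet-type subunit (ENSG00000067057.16, chromosome 10, 3066333 to 3137712). PFKP had 210, 224 and 207 CPM in siBRG1 libraries, against 212, 222 and 229 CPM in control libraries, and the groups overlapped. Its log2 ratio of −0.050 (SE 0.0410, 95% interval −0.13 to 0.034, adjusted p = 0.273) did not pass. After removal of GC and length trends it was −0.36 (adjusted p = 2.21e-09). With library totals alone, without TMM, it was 0.026 (adjusted p = 0.578), and with unstranded counts it was 0.0083 (adjusted p = 0.866). The liver-type subunit gene PFKL averaged 213 CPM in siBRG1 and 117 CPM in control, a rise with a log2 ratio of 0.87 (SE 0.0470, adjusted p = 9.21e-16). PFKP held 54.7 ± 0.680% of phosphofructokinase RNA per length in siBRG1 and 65.5 ± 1.44% in control, with no overlap between libraries (SD, n = 3 each; exact two-sided permutation p = 0.1, 0.175 adjusted over 7 families).

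**Figure D2:**
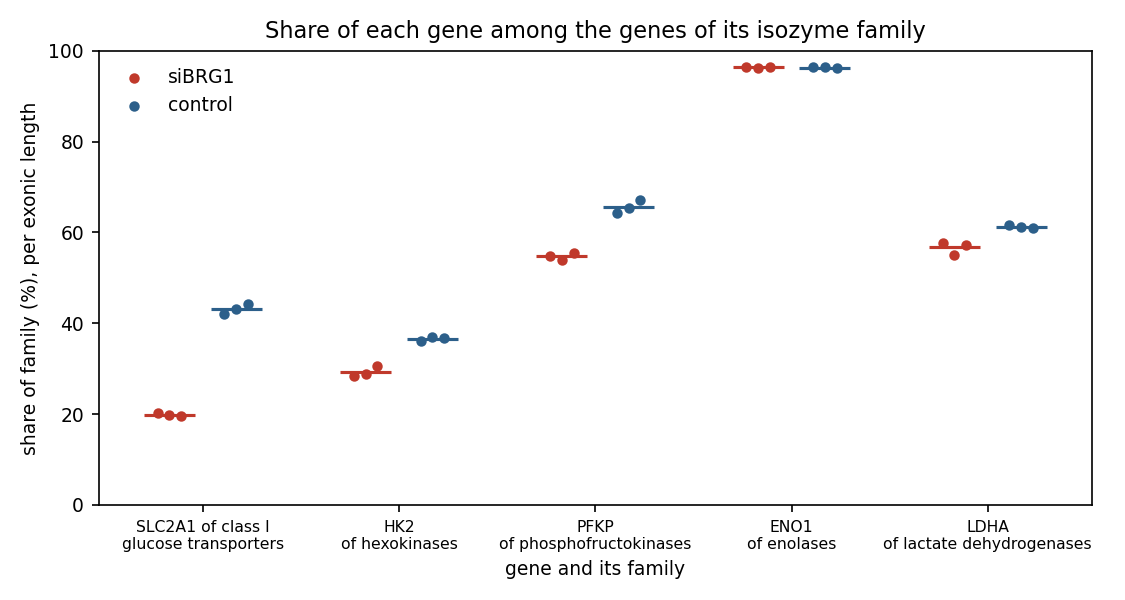
Share of each gene among the genes of its isozyme family, in percent of exonic-length-scaled RNA, in each siBRG1 library (red, left) and control library (blue, right) with the group mean as a line. SLC2A1 lies near 20% in siBRG1 against 43.2% in control, HK2, PFKP and LDHA are also lower in siBRG1, and the enolase share of ENO1 lies near 96.3% in both groups.

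Aldolase A, which cleaves fructose 1,6-bisphosphate, could be measured only in part. ALDOA (ENSG00000149925.18, chromosome 16, 30064164 to 30070457) shares 42.3% of its exonic bases with AC093512.2, another protein-coding gene annotated on the same strand, and reads in shared exons are counted to neither. ALDOA was counted at 13.5, 16.7 and 10.7 CPM in siBRG1 libraries, against 8.57, 9.61 and 9.10 CPM in control libraries. The groups did not overlap, but siBRG1 replicate 3 lay close to the highest control. The log2 ratio was 0.58 (SE 0.122, adjusted p = 0.000112). It was 0.52 with the counts of AC093512.2 added, an alternative chosen after the data were seen, and 0.34 after removal of GC and length trends (adjusted p = 0.0138). These values describe the exons outside AC093512.2, and the gene's full level is not given here.

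TPI1 interconverts the triose phosphates that aldolase releases (ENSG00000111669.14, chromosome 12, 6867119 to 6870948). It stood at 1185, 1244 and 1158 CPM in siBRG1 libraries, against 1011, 955 and 1021 CPM in control libraries, with every siBRG1 library higher. The log2 ratio was 0.26 (SE 0.0389, adjusted p = 7.28e-07), a 1.20-fold higher level. The call was lost after removal of GC and length trends, at a log2 ratio of 0.021 (adjusted p = 0.609).

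GAPDH, which makes NADH at the first oxidising step, is widely used as a loading control (ENSG00000111640.14, chromosome 12, 6533927 to 6538374). It had the highest level of the 10 genes as counted, with ALDOA counted only in part. It had 4167, 4302 and 4220 CPM in siBRG1 libraries, against 3880, 4122 and 4157 CPM in control libraries. Every siBRG1 library was higher, by little, and the log2 ratio of 0.062 (SE 0.0381, 95% interval −0.016 to 0.14, adjusted p = 0.148) did not pass. Per length it averaged 5837 TPM in siBRG1 and 5020 TPM in control, without TMM and so not on the scale of that log2 ratio. The direction depended on processing: after removal of GC and length trends the log2 ratio was −0.19 (adjusted p = 1.30e-05), with library totals alone it was 0.14 (adjusted p = 0.00178), and with unstranded counts it was 0.34 (adjusted p = 8.84e-10). Over the 422 exonic bases it shares with the antisense gene AC006064.4, unstranded counting assigns reads to neither gene, and GAPDH counts were 31007 to 33368 per siBRG1 library unstranded and 53817 to 57193 on the gene's strand. In control libraries they were 80067 to 97461 unstranded and 161716 to 188420 on the gene's strand.

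PGK1 makes the pathway's first ATP (ENSG00000102144.14, chromosome X, 77910739 to 78129296). It stood at 820, 849 and 805 CPM in siBRG1 libraries, against 679, 678 and 671 CPM in control libraries. The groups lay well apart, and the control libraries were close together, with an SD of 4.07 CPM. The log2 ratio was 0.29 (SE 0.0362, adjusted p = 5.04e-08), a 1.22-fold higher level that held in all 18 alternatives at 0.24 to 0.36. PGK2, the testis paralog, had 0 counts in all 6 libraries, and 3 counts would stand for 0.219 to 0.235 CPM in an siBRG1 library and 0.0618 to 0.0765 CPM in a control library.

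ENO1, which encodes the enolase that forms phosphoenolpyruvate (ENSG00000074800.14, chromosome 1, 8861000 to 8879250), had 2450, 2467 and 2526 CPM in siBRG1 libraries, against 2331, 2430 and 2370 CPM in control libraries. The groups did not overlap, but the gap was narrow, and the log2 ratio of 0.062 (SE 0.0365, 95% interval −0.013 to 0.14, adjusted p = 0.130) did not pass. It was −0.17 after removal of GC and length trends (adjusted p = 5.10e-05), 0.14 with library totals alone (adjusted p = 0.00142) and 0.12 with unstranded counts (adjusted p = 0.00436). ENO1 held 96.4 ± 0.119% of enolase RNA per length in siBRG1 and 96.3 ± 0.0901% in control (SD, n = 3 each; exact two-sided permutation p = 0.5, 0.7 adjusted over 7 families).

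PKM, pyruvate kinase of muscle and most other tissues, makes the last ATP of the pathway (ENSG00000067225.17, chromosome 15, 72199029 to 72231822). It stood at 2669, 2652 and 2718 CPM in siBRG1 libraries, against 2216, 2208 and 2160 CPM in control libraries, with no overlap. The log2 ratio was 0.29 (SE 0.0361, adjusted p = 4.38e-08), 1.22-fold higher, and 0.17 after removal of GC and length trends (adjusted p = 6.53e-05). Counts per gene do not tell its spliced isoforms apart. PKLR, the liver and red cell gene, had 0 counts in all 6 libraries.

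LDHA encodes the muscle-type subunit of lactate dehydrogenase (ENSG00000134333.13, chromosome 11, 18394388 to 18408425). It had 1655, 1605 and 1719 CPM in siBRG1 libraries, against 2018, 1963 and 1959 CPM in control libraries. All siBRG1 libraries were lower, and the log2 ratio was −0.25 (SE 0.0375, adjusted p = 7.47e-07), a level 1.19-fold lower that held its call in all 18 alternatives at −0.30 to −0.18. LDHB, the heart-type subunit gene, averaged 609 CPM in siBRG1 and 602 CPM in control and did not pass (log2 ratio 0.016, SE 0.0371, adjusted p = 0.702). LDHA held 56.7 ± 1.40% of lactate dehydrogenase RNA per length in siBRG1 and 61.2 ± 0.265% in control (SD, n = 3 each; exact two-sided permutation p = 0.1, 0.175 adjusted over 7 families).

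**Figure D3:**
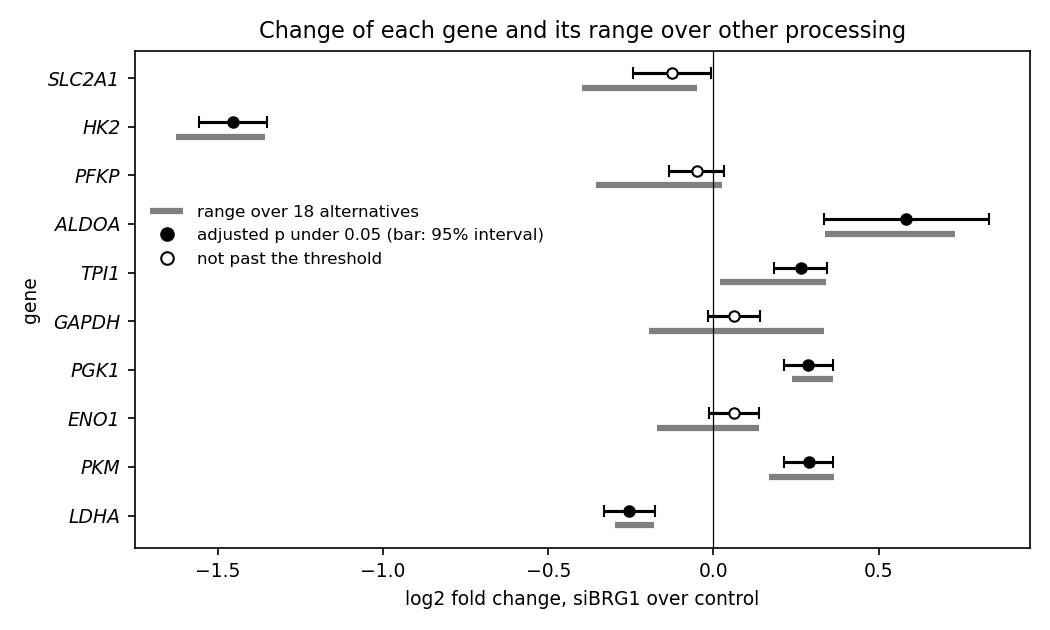
Log2 fold change of each gene, siBRG1 over control (point, with its 95% interval; filled where the adjusted p is under 0.05), and its range over 18 alternative analyses (grey bar). HK2 stays between −1.63 and −1.36, whereas the ranges of PFKP, GAPDH and ENO1 cross 0.

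Copies of these genes could share their reads. GENCODE 29 names 62 pseudogene copies of GAPDH, 6 of LDHA, 5 of PKM, 4 each of TPI1 and ENO1, 2 of ALDOA, 1 each of HK2 and PGK1, and by the same naming none of SLC2A1 or PFKP. The copies of LDHA held on average 1.56% of the LDHA family's counts in siBRG1 and 0.334% in control. For every other gene the copies held under that control share of LDHA in both groups, apart from TPI1, at 0.300% in siBRG1 and 0.381% in control. Of the tested copies GAPDHP65 rose, averaging 1.17 CPM in siBRG1 and 0.545 CPM in control (log2 ratio 1.10, SE 0.367, adjusted p = 0.00921), and GAPDHP1 and TPI1P1 did not pass. TPI1P2 fell, averaging 0.530 CPM in siBRG1 and 1.05 CPM in control (log2 ratio −0.97, SE 0.390, adjusted p = 0.0285), a call lost with DESeq2 (adjusted p = 0.0587) and without siBRG1 replicate 2 or 3 or control replicate 3 (adjusted p = 0.137, 0.0517 and 0.0627). HK2P1, ALDOAP2, PGK1P2, ENO1P3, PKMP1 and PKMP3 had too few counts to be tested. With the copies' counts added to their parent genes, all 10 genes kept their direction and call.

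LDHAP7, a processed pseudogene of LDHA (ENSG00000235847.2, chromosome 2, 84777259 to 84778223), stood apart from its parent. It had 16.7, 14.9 and 14.7 CPM in siBRG1 libraries, against 0.700, 0.765 and 0.622 CPM in control libraries, a log2 ratio of 4.47 (SE 0.168, adjusted p = 1.73e-19). LDHAP4, on chromosome 9, rose to 9.25, 6.98 and 9.02 CPM in siBRG1 libraries, against 5.74, 4.21 and 4.43 CPM in control libraries (log2 ratio 0.80, SE 0.151, adjusted p = 2.75e-05). LDHAP3, the remaining tested copy, averaged 2.07 CPM in siBRG1 and 0.692 CPM in control (log2 ratio 1.56, SE 0.334, adjusted p = 0.000146). All 3 copies rose while LDHA fell. A stretch of the LDHA coding sequence, bases 161 to 280 counted from its first coding base, is printed with the matching stretch of both leading copies to show how alike they are, with each base that differs from LDHA in capitals (GENCODE 29 transcripts, GRCh38).
LDHA: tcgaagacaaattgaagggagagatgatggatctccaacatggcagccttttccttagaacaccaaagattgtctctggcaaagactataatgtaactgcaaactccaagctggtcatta
LDHAP7: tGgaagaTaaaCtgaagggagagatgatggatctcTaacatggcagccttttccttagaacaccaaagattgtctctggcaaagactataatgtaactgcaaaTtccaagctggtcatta
LDHAP4: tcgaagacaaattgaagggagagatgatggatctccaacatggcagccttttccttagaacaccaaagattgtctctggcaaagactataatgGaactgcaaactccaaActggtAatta
LDHAP7 differed from LDHA at 5 of these 120 bases and LDHAP4 at 3. Over their whole alignment to the LDHA coding sequence they were 93.6% and 95.8% identical, with longest identical runs of 67 and 107 bases. A read that lies within such a run fits both genes and is counted to neither, so the copies' values are uncertain.

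Reads that mapped to several places were counted to no gene. They made up 18.5, 20.9 and 21.5% of all reads in the siBRG1 libraries, against 10.0, 9.84 and 9.57% in the control libraries (two-sided exact permutation test, p = 0.1, which is the smallest possible). The groups lay far apart, with a difference of 10.5 percentage points. How many of these reads came from glycolysis genes cannot be read from the count tables, and the part of multimapping in the values of LDHA, GAPDH and the other genes with copies was not tested. HK2, with the largest change, has 1 named copy, HK2P1, which had 0 counts in siBRG1 and 6 over the control libraries, and is 96.7% identical to its coding sequence. SLC2A1 and PFKP have no named copy.

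**Figure D4:**
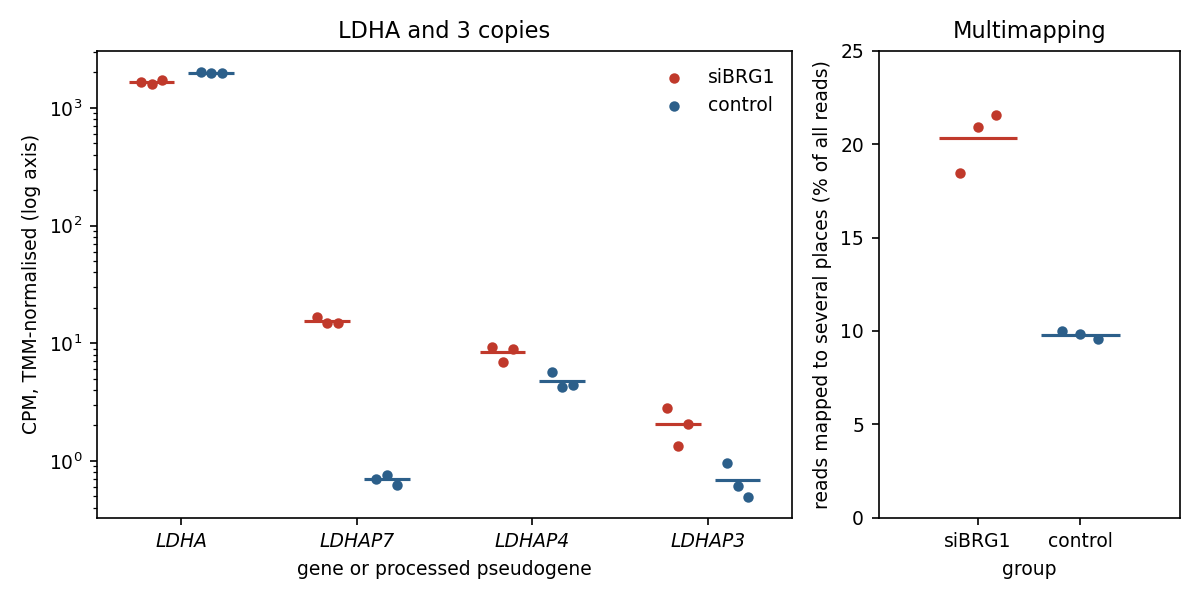
Left, CPM (log axis) of LDHA and of its 3 tested pseudogene copies in each siBRG1 (red, left) and control (blue, right) library; right, the share of all reads that mapped to several places; lines are group means. LDHA is lower in siBRG1 while its copies are higher, and the multimapping share is 20.3% in siBRG1 against 9.81% in control.

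Other genes of glucose metabolism changed in both directions. In 8 lists of other genes of glucose metabolism, 87 of 112 genes were tested, 43 rose, 29 fell and 15 did not pass, and 16 of the 87 changed at least 2-fold, against 21.6% of all genes tested. The median absolute log2 ratio was 0.57, beside 0.48 over all genes tested. The share that passed, 82.8%, stands against 72.6% of all genes tested. For each list below, the background is that 36.1% of all genes tested rose and 36.5% fell. The lists are small, and none was tested as a set.

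Of 13 other glycolytic enzyme genes tested 6 rose, 4 fell and 3 did not pass, with a median log2 ratio of 0.10. GPI, which converts glucose 6-phosphate to fructose 6-phosphate directly after hexokinase, fell to 255, 262 and 273 CPM in siBRG1 libraries, against 549, 591 and 573 CPM in control libraries (log2 ratio −1.12, SE 0.0394, adjusted p = 3.96e-20). PGAM1, the phosphoglycerate mutase between PGK1 and ENO1, averaged 109 CPM in siBRG1 and 180 CPM in control, a fall with a log2 ratio of −0.72 (adjusted p = 2.78e-15). ALDOC, the brain-type aldolase gene, rose to 6.95 ± 1.73 CPM in siBRG1 against 2.002 ± 0.298 CPM in control (SD, n = 3 each; log2 ratio 1.78, SE 0.191, adjusted p = 2.37e-09). HK1, HK2 and GPI, which encode enzymes at the top of the pathway, all fell. ENO3, the muscle enolase gene, rose at a low level, averaging 3.47 CPM in siBRG1 and 2.33 CPM in control (log2 ratio 0.58, SE 0.198, adjusted p = 0.0110).

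Among other genes of the SLC2A and SLC5A transporter families 6 of 9 tested rose, 1 fell and 2 did not pass. Over all genes tested 36.1% rose. The median log2 ratio of 1.07 is the value of SLC2A5, which averaged 1.90 CPM in siBRG1 and 0.885 CPM in control. SLC2A13 and SLC5A2 also rose at low level, averaging 1.25 and 0.837 CPM in siBRG1 against 0.702 and 0.230 CPM in control. Beside SLC2A3, the genes named by the rule were SLC2A10 (log2 ratio 1.58, SE 0.216, adjusted p = 2.09e-07) and SLC2A12 (log2 ratio 1.36, SE 0.1005, adjusted p = 9.36e-13), both less studied facilitative transporters and both far lower in level. SLC2A10 averaged 4.23 CPM in siBRG1 and 1.41 CPM in control, and SLC2A12 averaged 20.7 CPM and 8.09 CPM in the same groups.

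Regulators of the flux went both ways, 6 of 14 up and 5 down, with a median of 0.022. TXNIP, an arrestin-fold protein known to promote removal of GLUT1 from the cell surface, rose to 259, 273 and 286 CPM in siBRG1 libraries, against 94.3, 91.3 and 91.0 CPM in control libraries (log2 ratio 1.56, SE 0.0422, adjusted p = 5.80e-23). PFKFB4, which sets the level of the phosphofructokinase activator fructose 2,6-bisphosphate, rose by a log2 ratio of 0.95 (SE 0.1002, adjusted p = 1.60e-09). PDP1, the phosphatase that activates pyruvate dehydrogenase, fell by 0.86 on the log2 scale (SE 0.0427, adjusted p = 1.11e-16). HIF1A, the oxygen-regulated HIF-1 subunit, averaged 357 CPM in siBRG1 and 342 CPM in control and did not pass (log2 ratio 0.059, adjusted p = 0.138), and MYC fell by 0.44 on the log2 scale (adjusted p = 2.72e-08).

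Pyruvate and lactate handling held 5 of 12 genes that rose and 6 that fell (median −0.13). BSG, the chaperone of the lactate transporters, rose to 831 ± 23.7 CPM in siBRG1 against 416 ± 20.1 CPM in control (SD, n = 3 each; log2 ratio 1.00, SE 0.0397, adjusted p = 6.57e-19). The transporter gene SLC16A7 fell by 0.92 on the log2 scale (SE 0.0622, adjusted p = 1.14e-13), and SLC16A1 and SLC16A3, which encode MCT1 and MCT4, fell by 0.56 and 0.38. PC, the mitochondrial pyruvate carboxylase, rose by a log2 ratio of 0.98 (SE 0.0771, adjusted p = 3.46e-12).

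The pentose phosphate pathway, which branches off at glucose 6-phosphate and yields NADPH and ribose, had 6 of 10 genes that rose and 2 that fell (median 0.54). Background shares over all genes tested were 36.1% and 36.5%. H6PD, an oxidative enzyme of the endoplasmic reticulum, rose by a log2 ratio of 1.49 (SE 0.0773, adjusted p = 3.31e-16), and PGLS, the lactonase of the cytosolic pathway, by 1.23 (SE 0.0763, adjusted p = 1.75e-14). PRPS1, which uses ribose 5-phosphate to make the precursor of nucleotides, fell by 1.05 on the log2 scale (SE 0.0402, adjusted p = 2.52e-19).

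Of 13 glycogen genes 8 rose and 4 fell (median 0.15). GYG2 and GYG1, the 2 primers of glycogen synthesis, moved in opposite directions, with log2 ratios of 1.13 and −0.85 (SE 0.121 and 0.0635), and PGM1, which links glycogen to glucose 6-phosphate, rose by 0.81 (SE 0.0507). In gluconeogenesis 3 of 4 tested genes rose (median 0.75), with SLC37A4, the glucose 6-phosphate carrier of the endoplasmic reticulum, at 0.95 (SE 0.114) and PCK2 at 0.54 (SE 0.127). The call of PCK2 was lost after removal of GC and length trends (adjusted p = 0.119). Of 12 tested genes of the hexosamine, serine and glycerol phosphate branches 3 rose and 7 fell (median −0.22). In serine synthesis PHGDH rose, at a log2 ratio of 0.995 (SE 0.0532), and PSAT1, the next enzyme, fell by 0.86 (SE 0.0576). GNPNAT1, a hexosamine enzyme, fell by 0.84 on the log2 scale (SE 0.0764).

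**Figure D5:**
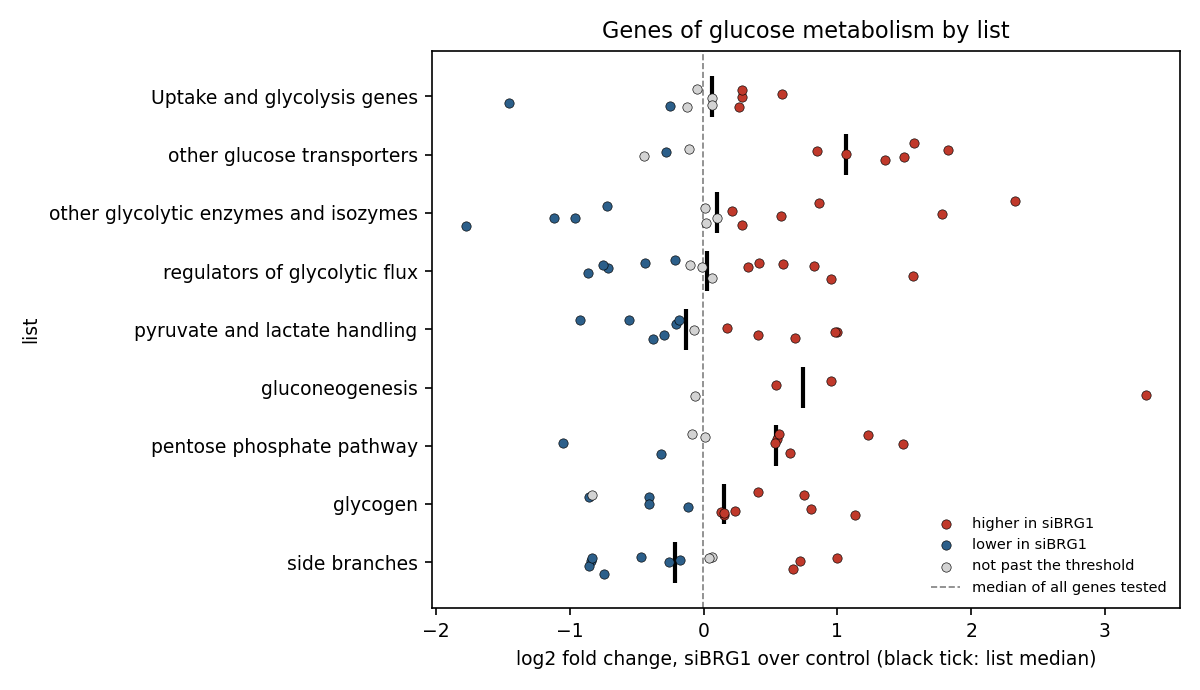
Log2 fold change, siBRG1 over control, of each tested gene in the 10-gene set and in 8 lists of other glucose metabolism genes; red points are higher, blue lower and grey not past the threshold, black ticks are list medians and the dashed line is the median of all genes tested. All of the 10 genes but HK2 and ALDOA lie between −0.25 and 0.29, HK2 lies at −1.45, and the transporter and pentose phosphate medians lie at 1.07 and 0.54. The transporter median is the value of SLC2A5, a gene of low level.

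Genes whose profile over the 6 libraries was most like that of HK2 were sought among 10726 other protein-coding genes with a mean of at least 100 counts, by the root mean square difference of centred log2 CPM. The 5 nearest were PLEKHA3, DLC1, ANKRD13A, NF2 and S1PR1, with differences of 0.0244 to 0.0393 and log2 ratios of −1.51 to −1.40. With 2 groups this likeness mostly restates the size of the change.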

How the data were processed

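RNA of 6 libraries of 12Z cells, 3 per group, was sequenced from directional mRNA libraries, per the labels' protocols. The authors deposited, library by library, raw gene counts in STAR's layout. Per the submitters' processing notes, cutadapt, Trim Galore, FastQC, STAR and DESeq2 were used, with build GRCh38.p12; their versions and the annotation release are not given in the sources used here. Among 58336 identifiers, 58216 matched GENCODE 29 without version, which gave symbols, coordinates and exonic lengths. The authors' deposited comparison table holds, per its file headers, a mean signal, a Wald score, log2 fold changes with standard errors, and p-values. It is used only where named.

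Counts on the gene's strand were the main measure. Entries without a gene were kept out of totals: in siBRG1 1.84% of reads were unmapped, 3.97% had no feature and 3.11% were ambiguous, and in control 1.64%, 13.3% and 4.16%. Multimapping is given in the results. The comparison used edgeR 4.0.16 under R 4.3.3 (TMM, filterByExpr, robust quasi-likelihood, group as the term), two-sided. SE is the absolute log2 fold change over the square root of F, and the 95% interval is SE times the t quantile. The fit was also run on simulated counts in which few genes changed and the spread was fixed, unlike these data. That run checks the code and not the error rates here. Replicates differed beyond sampling noise (chi-square over its degrees of freedom 2.64 to 4.55) and were kept apart. TPM was computed from counts and the union of exons, without TMM. Promoters were searched as letters on both strands, and pseudogenes aligned with Biopython 1.88. Intervals include the spread between libraries, and floors cover counting error only.

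Alternatives were DESeq2 1.42.0, other scalings, filters, columns, gene sets, thinning, GC and length offsets (mgcv 1.9.3), a replicate block, adding copies, and leaving out each library. Named besides the 10 genes and SMARCA4 were up to 3 genes per list with the largest change past the threshold and a mean of at least 50 counts, the 2 most counted copies per gene, and the 5 genes nearest HK2. Genes named beyond this (PFKL, LDHB, PGAM1, HIF1A, MYC, ENO3, SLC2A5, SLC2A13, SLC5A2, SLC16A1, SLC16A3, LDHAP3, PGK2, PKLR and FBP1) were chosen after their values were seen. The 10 genes and the lists were chosen with earlier results of these data known.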

Additional observations from a re-analysis of the deposited data

How the results depend on the processing

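Across 18 alternatives HK2, ALDOA, PGK1, PKM and LDHA kept direction and call. The other 5 did not. With GC and length trends removed 6 of the 10 genes passed as lower, beside 6115 of all 15830 genes tested. GAPDH turned to −0.19 and ENO1 to −0.17, SLC2A1 (−0.40) and PFKP (−0.36) passed, and TPI1 (0.021) was lost. With protein-coding genes alone 4 of the 10 were lower, beside 4825 of all 12783 genes tested, with SLC2A1 at −0.17 and PFKP at −0.092. PFKP turned to 0.026 with library totals alone, which moved the median of all genes to 0.071, and to 0.0083 with unstranded counts. The cause of these shifts was not tested. Leaving out each library gave 6 to 7 of the 10 genes past the threshold and 10291 to 11692 of all genes (66.6 to 71.7% of those tested). SLC2A1 passed without siBRG1 replicate 1 or 3 or control replicate 1 (adjusted p = 0.0297, 0.0278 and 0.0155). The multimapping difference was 9.90 to 11.4 percentage points. A replicate block called 11194 genes (70.7% of those tested). Same-numbered libraries did not deviate together (r = −0.0178, 0.0339 and 0.0130), and r was −0.0365 to 0.0213 for different numbers. With 3 libraries per group this check cannot show whether the numbers pair them. Under the block SLC2A1 passed (adjusted p = 0.0455) and the other 9 kept their calls. With the controls thinned to siBRG1 depth 10150 genes passed (72.2% of those tested), and the calls of the 10 genes were the same. Depth is lower in siBRG1, and limits the low copies and ALDOA most.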

Other observations

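FBP1, the gluconeogenic fructose bisphosphatase, was singled out after its values were seen. It changed by more than any of the 10 genes but rests on few reads. It had 31, 37 and 27 counts in siBRG1 libraries, against 15, 7 and 9 counts in the deeper control libraries, or 2.43 ± 0.418 CPM and 0.237 ± 0.0662 CPM (SD, n = 3 each; edgeR log2 fold change 3.31, SE 0.358, adjusted p = 2.74e-09).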
